A study of Rattus norvegicus with 16 samples.

Results

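C3, Apoe and Spp1 encode secreted proteins that glia and macrophages release in injured nervous tissue. They were followed in the dorsal horn of the rat lumbar cord, where sensory fibres of the leg end. These 3 genes were chosen by name from the 30560 Ensembl gene IDs of the count table, as ENSRNOG00000046834 (C3), ENSRNOG00000018454 (Apoe) and ENSRNOG00000043451 (Spp1). The table lists IDs only, so the names are those under which the IDs were selected. Poly(A) RNA was taken 28 days after surgery from wild-type (WT) rats and from LPA4-KO rats, which lack one of the receptors for the signalling lipid lysophosphatidic acid. Surgery was either sham or spared nerve injury (SNI), in which branches of the sciatic nerve are cut and one is left intact, a model of lasting nerve pain. Each of the 4 groups, WT and KO after either operation, held 4 libraries. The titles of the 4 KO sham libraries give "WT" where the others name the operation. The column headers of the count table call them KO sham, and the stated design has no other operation. The labels used here do not state the strain, age or sex of the rats, how the knockout was made, whether it is limited to a cell type, or whether a library is 1 animal or a pool. The p-values below therefore measure the spread between libraries, which may be technical.

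Complement component C3 is the protein on which the complement pathways meet: when it is cleaved, 1 fragment tags synapses, debris and cells for phagocytes that carry complement receptors, and the other is a signal to cells that carry its own receptor. In the central nervous system C3 is made by reactive astrocytes and by microglia. Apolipoprotein E is the main lipid carrier of the brain and spinal cord, made in quantity by astrocytes at rest and by microglia that have taken up myelin debris. Osteopontin, the product of Spp1, is a phosphorylated matrix protein and cytokine that binds integrins and CD44. It is known from activated microglia and macrophages and from large neurons, among them motor neurons. A change in a bulk tissue library can come from more cells of a type or from more RNA per cell, and these cannot be told apart here.

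The bases just before a start site of each gene are shown because they hold part of each gene's promoter, where transcription is started and regulated. They are RefSeq sequences of the rat build GRCr8, 250 bases long, on the minus strand and written 5′ to 3′. The counts were made on the build mRatBN7.2, so these positions belong to the sequences only. Capitals mark matches, on either strand, to 1 of 4 motifs: AP-1 (TGANTCA), the ETS and PU.1 core (GAGGAA), the TATA box (TATAAA) and the GC box (GGGCGG). For Apoe the table holds 3 start sites, and the window with the most matches is printed.
C3, chr9:2201340-2201589: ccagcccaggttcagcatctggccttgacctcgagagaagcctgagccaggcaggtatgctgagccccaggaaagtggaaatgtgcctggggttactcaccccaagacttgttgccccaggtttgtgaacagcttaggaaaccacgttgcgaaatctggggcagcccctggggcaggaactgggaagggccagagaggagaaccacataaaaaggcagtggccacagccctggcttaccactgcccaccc
Apoe, chr1:88484700-88484949: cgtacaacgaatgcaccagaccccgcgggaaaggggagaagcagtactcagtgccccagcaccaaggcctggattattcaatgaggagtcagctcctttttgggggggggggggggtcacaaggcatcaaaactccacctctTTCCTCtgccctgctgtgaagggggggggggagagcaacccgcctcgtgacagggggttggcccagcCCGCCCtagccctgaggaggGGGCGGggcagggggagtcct
Spp1, chr14:5619805-5620054: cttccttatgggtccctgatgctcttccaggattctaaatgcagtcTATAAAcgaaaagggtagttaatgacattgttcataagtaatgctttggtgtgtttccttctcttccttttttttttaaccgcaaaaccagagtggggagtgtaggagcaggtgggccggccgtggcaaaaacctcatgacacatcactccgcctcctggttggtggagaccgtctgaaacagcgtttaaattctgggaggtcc
No motif was shared by the 3 windows. The Apoe window held 1 ETS match and 2 GC boxes, the Spp1 window held 1 TATA box, at position -204 from the start site, and the C3 window held 0 matches. Over all 33465 windows of the same length in the table, 6.34% held AP-1, 23.3% the ETS core, 12.9% the TATA box and 30.5% the GC box, so each match is a common one and says nothing on its own about a factor's binding.

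Library totals ran from 15790243 to 28090152 counts, and all 3 genes passed the filter on low counts that left 15237 genes. WT sham replicate 2 had the lowest total and stood apart: its median correlation of log2 CPM with the remaining libraries, across genes, was 0.949, followed by 0.973 in KO SNI replicate 1 and 0.980 to 0.987 in the others. A search over all 30560 IDs found 1 at 0 counts throughout the 8 KO libraries while reaching 10 or more in each of the 8 WT libraries. The reverse pattern was not searched for. This sets the KO libraries apart from the WT libraries but does not show that the targeted gene is the one lost. The files do not pair that ID with a name. Marker genes of the tissue and of its cell types could not be looked up for the same reason, and so the share of any cell type in these libraries was not measured. Levels are given as CPM, that is, counts scaled to a common library size, with TMM scaling factors. CPM does not allow for gene length, so levels are not compared between genes.

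C3 was the only gene of the 3 with a called rise after injury, in the effect averaged over genotypes given below. In WT sham libraries it was at 65.5, 103, 47.6 and 40.7 CPM in replicates 1 to 4, and in WT SNI libraries at 210, 227, 175 and 148 CPM. Every WT SNI library was above every WT sham library. In KO sham libraries C3 was at 78.3, 73.9, 42.2 and 31.0 CPM, and in KO SNI libraries at 273, 166, 144 and 121 CPM, again with no overlap. Such a separation in the higher direction was seen for 1.9% of all 15237 genes in WT and 2.49% in KO. Across genotypes, the lowest of the 8 SNI libraries, at 121 CPM, lay above the highest of the 8 sham libraries, at 103 CPM. The share of all genes that separate in this way across genotypes was not counted, so how unusual it is cannot be said.

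**Figure D1:**
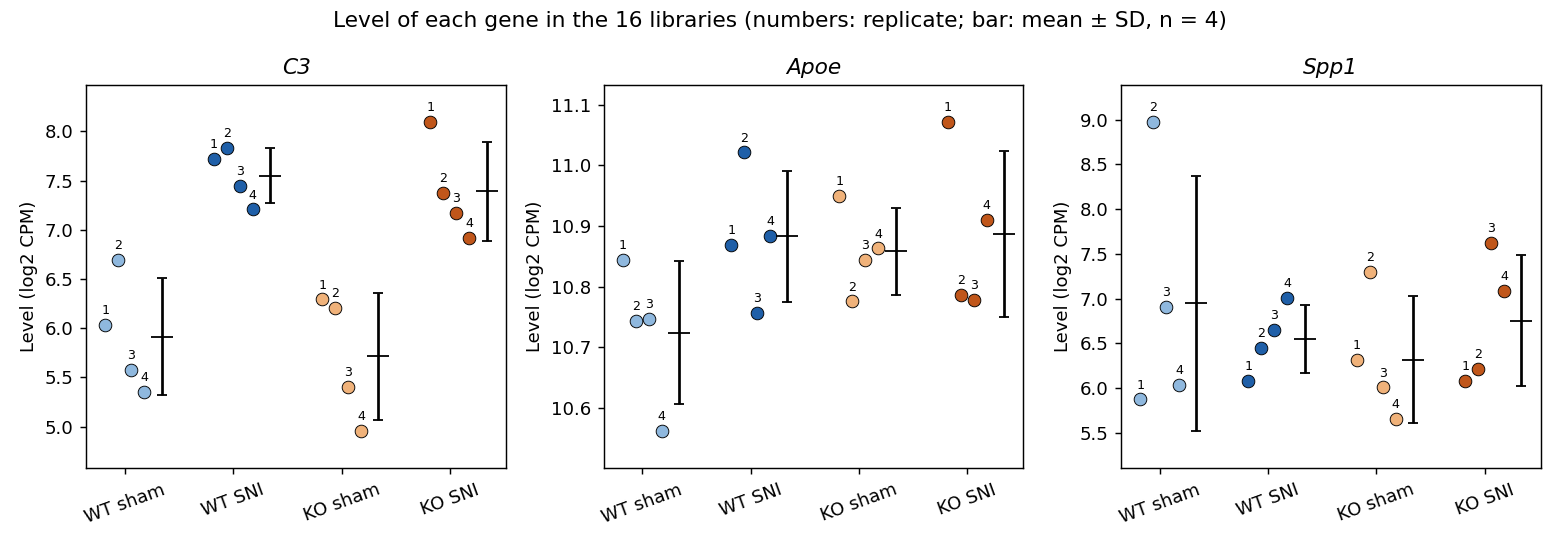
Level of C3, Apoe and Spp1 (vertical axis, log2 CPM; each panel has its own range) in each of the 16 libraries, by group; the number beside a point is its replicate, and the bar is the mean ± SD of log2 CPM (n = 4). C3 is higher in all SNI libraries than in all sham libraries, Apoe overlaps between operations, and for Spp1 WT sham replicate 2 lies far above the rest at 502 CPM.

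The mean level of C3 went from 64.3 ± 28.0 to 190 ± 35.8 CPM in WT and from 56.3 ± 23.3 to 176 ± 67.4 CPM in KO (SD, n = 4 each). One model over all 16 libraries gave a log2 fold change of 1.57 (SE 0.35) in WT, or 2.96-fold with a 95% confidence interval of 1.77 to 4.97. In KO it gave 1.64 (SE 0.35), or 3.13-fold (1.86 to 5.25). Neither passed the threshold of 0.05 after adjustment over all genes (edgeR quasi-likelihood, adjusted p = 0.181 in WT and 0.0935 in KO), where 0.0853% and 0.105% of genes did. Averaged over genotypes, the effect was 1.61 (SE 0.25), or 3.04-fold (2.11 to 4.39), and C3 was called higher (edgeR adjusted p = 0.00444), where 0.912% of genes were called in either direction. Without WT sham replicate 2 and KO SNI replicate 1 it was 1.62 (SE 0.21, edgeR adjusted p = 0.00303). Over all 16 libraries, 13 of the genes tested had a larger averaged rise than C3, while 40 had a smaller p.

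C3 varied widely between libraries of the same group. Its log2 CPM had a within-group SD of 0.52, larger than in 97.3% of the 10426 genes with a mean log2 CPM of at least 3, whose median SD was 0.15. The highest library of a group was 1.54 to 2.54 times the lowest. Replicate 4 held the lowest C3 level in all 4 groups, although nothing in the labels ties libraries of the same number together. The call within each genotype depended on the tool. DESeq2 called C3 higher in WT (log2 fold change 1.57, adjusted p = 0.00831) and in KO (1.64, adjusted p = 0.00352), and limma voom did not (1.65, adjusted p = 0.095 in WT and 1.68, adjusted p = 0.0702 in KO). Of the 15237 genes given to each tool, DESeq2 called 65 in WT and 98 in KO, in either direction. With limma voom it was 0 in WT and 7 in KO, so its missing call in WT was shared by every gene. An exact permutation test within each genotype gave p = 0.0286, two-sided, for C3 in WT and in KO, the smallest value that 70 arrangements allow. Adjusted over the 6 tests of 3 genes in the 2 genotypes it was 0.0857.

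Apoe was abundant and steady. In WT sham libraries it was at 1839, 1714, 1719 and 1512 CPM in replicates 1 to 4, and in WT SNI libraries at 1870, 2079, 1730 and 1890 CPM. In KO sham libraries it was at 1978, 1753, 1839 and 1862 CPM, and in KO SNI libraries at 2152, 1766, 1756 and 1924 CPM. The sham and SNI values overlapped in each genotype. The whole range over 16 libraries was 1.42-fold, and Apoe took up 0.152% to 0.219% of a library's counts. Its within-group SD of 0.11 on the log2 scale was larger than in 27.7% of the genes with a mean log2 CPM of at least 3. Without WT sham replicate 2 the SD was 0.12, larger than in 39.4% of them.

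The injury effect on Apoe was small enough to be bounded. In WT the log2 fold change was 0.16 (SE 0.08, edgeR adjusted p = 0.999), or 1.12-fold with a 95% confidence interval of 0.986 to 1.26. In KO it was 0.03 (SE 0.08, edgeR adjusted p = 0.995), or 1.02-fold (0.903 to 1.16). Averaged over genotypes it was 1.07-fold (0.978 to 1.17). An exact permutation test of log2 CPM, two-sided, gave p = 0.0571 in WT and 0.771 in KO (adjusted over the 6 tests, 0.114 and 0.8). The intervals leave room for a rise of up to 1.26-fold in WT, and a change of the size seen for C3 lies outside them. In KO the sign of the effect rested on KO SNI replicate 1, the library with the highest Apoe level, and without it the log2 fold change was -0.03.

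**Figure D2:**
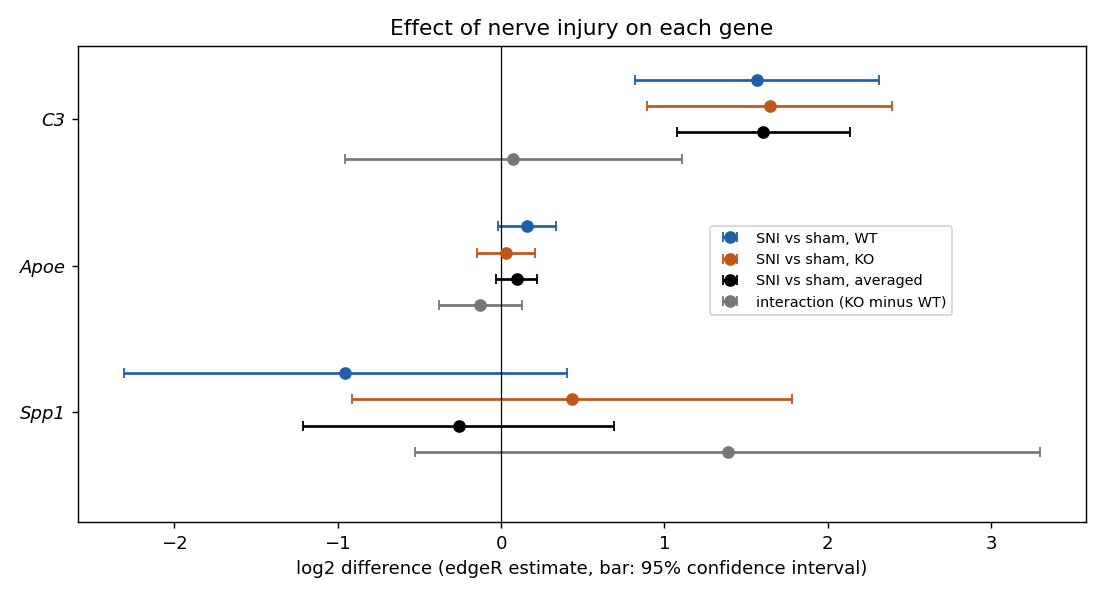
Effect of SNI on each gene in WT, in KO and averaged over genotypes, with the interaction, which is the effect in KO minus that in WT (horizontal axis, log2 difference from edgeR; points are estimates and bars 95% confidence intervals). All C3 effects of SNI lie above 0, those of Apoe lie close to 0 with short bars, and those of Spp1 have long bars that span 0.

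Spp1 varied more between libraries of the same group than between groups. In WT sham libraries it was at 58.7, 502, 120 and 65.5 CPM in replicates 1 to 4, and in WT SNI libraries at 67.9, 87.5, 101 and 128 CPM. In KO sham libraries it was at 79.6, 157, 64.4 and 50.3 CPM, and in KO SNI libraries at 67.7, 74.4, 197 and 136 CPM. The groups overlapped in each genotype. Its within-group SD was 0.90 on the log2 scale, larger than in 99.3% of the genes with a mean log2 CPM of at least 3, and without WT sham replicate 2 it was 0.61, still larger than in 99.5% of them.

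WT sham replicate 2 set the direction of the Spp1 effect in WT. Over all libraries the log2 fold change after SNI was -0.95 (SE 0.63, edgeR adjusted p = 0.999), with a 95% confidence interval of the fold of 0.202 to 1.32. Without that library it was 0.24 (SE 0.46, edgeR adjusted p = 0.931), so the sign turned. In KO it was 0.43 (SE 0.63, edgeR adjusted p = 0.995), or 1.35-fold (0.531 to 3.44). Single libraries moved this value from 0.08, without KO SNI replicate 3, to 0.87, without KO sham replicate 2. The averaged effect likewise went from -0.26 to 0.34 without WT sham replicate 2. In KO a rise of the size measured for C3 lies within the interval, so it could not be told from no change at this spread.

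**Figure D3:**
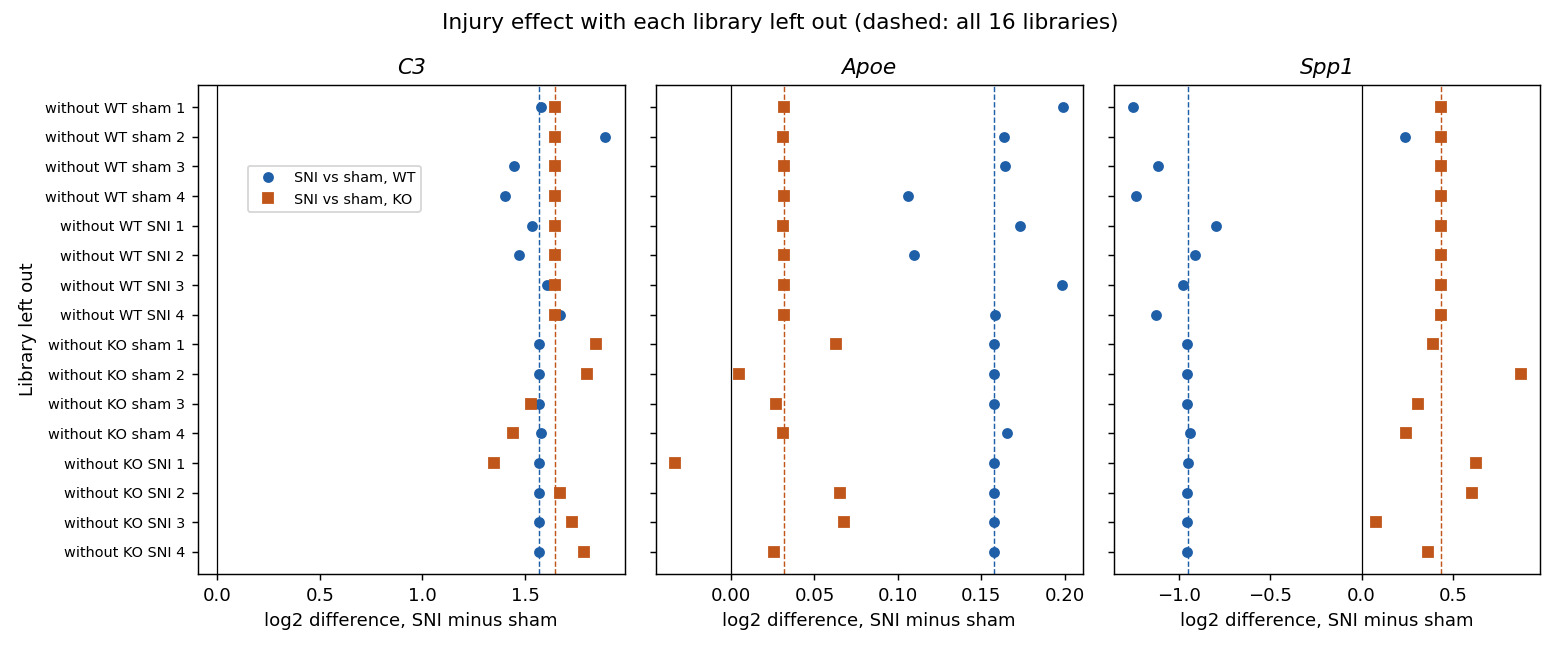
Effect of SNI on each gene (horizontal axis, log2 difference from edgeR; each panel has its own range) in WT (circles) and KO (squares), with each of the 16 libraries left out in turn (rows); dashed lines mark the values over all libraries. The C3 effect stays between 1.35 and 1.89 in every row, whereas the Spp1 effect in WT turns from -0.95 to 0.24 without WT sham replicate 2.

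The Spp1 level of WT sham replicate 2 was 6.30 times the median of the other 15 libraries. Only 21 of the 10426 genes with a mean log2 CPM of at least 3 were raised more in that library by the same measure. C3 and Apoe were not high there in this way, at 0.854 and 0.932 times the median of the other 15. Against the other 3 WT sham libraries alone, C3 was 2.17 times their median in WT sham replicate 2. That library therefore held the highest sham level of both C3 and Spp1. Whether RNA of other cells contributed to either was not tested.

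The knockout was not accompanied by a called difference in any of the 3 genes. After sham, the log2 difference of KO from WT was -0.19 for C3 (SE 0.34), 0.13 for Apoe (SE 0.08) and -1.08 for Spp1 (SE 0.63), with edgeR adjusted p values of 0.918, 0.882 and 0.882. In this comparison 0.0131% of genes were called. The value for Spp1 again rested on WT sham replicate 2 and was 0.10 without it. After SNI, the differences were -0.11 for C3 (SE 0.34), 0.01 for Apoe (SE 0.08) and 0.30 for Spp1 (SE 0.63), each with an edgeR adjusted p of 1.0, and 0.0131% of genes were called there too. As folds, the 95% confidence intervals after SNI were 0.561 to 1.53 for C3, 0.887 to 1.14 for Apoe and 0.486 to 3.14 for Spp1. The data thus bound a genotype difference closely for Apoe, less so for C3 and loosely for Spp1.

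Whether the response to injury itself differed between genotypes was tested as an interaction, and edgeR called 0% of genes. At an unadjusted p under 0.05 it gave 455 of the 15237 genes tested, a smaller share than the 0.05 expected with no interaction. After adjustment DESeq2 called 1 gene and limma voom 0. C3, Apoe and Spp1 were in none of these sets. For C3 the log2 rise in KO exceeded that in WT by 0.08 (95% confidence interval -0.96 to 1.11, edgeR adjusted p = 0.991). The C3 rise in KO could thus be between 0.515 and 2.16 times that in WT. For Apoe the interaction was -0.13 (-0.38 to 0.13, edgeR adjusted p = 0.981). For Spp1 it was 1.39 (-0.52 to 3.30, edgeR adjusted p = 0.981), and 0.20 without WT sham replicate 2.

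The difference between genes was then measured within each library, where it does not depend on how library sizes are scaled. The log2 ratio of C3 to Apoe rose by 1.48 after SNI in WT and by 1.65 in KO. All SNI libraries lay above all sham libraries of their genotype in this ratio (exact permutation test, two-sided, p = 0.0286 in each, 0.0571 adjusted over 6 tests). As Apoe changed little, this ratio largely repeats the difference in mean log2 CPM of C3 alone, 1.64 in WT and 1.67 in KO. How many other genes separate in this way in a ratio to Apoe or to Spp1 was not counted. The log2 ratio of C3 to Spp1 rose by 2.04 in WT, with no overlap (exact permutation p = 0.0286, adjusted 0.0571). The gap was narrow, with the lowest WT SNI library at 0.20 and the highest WT sham library at 0.16. Without WT sham replicate 2 the change in WT was 1.62. In KO the change in that ratio was 1.24 (exact permutation p = 0.0857, adjusted 0.129), with overlap from KO SNI replicates 3 and 4, at -0.45 and -0.17, which held the highest Spp1 levels of their group. Without KO SNI replicate 1 the change in KO was 0.78. For Apoe against Spp1 the change was 0.56 in WT and -0.40 in KO, with exact permutation p values of 0.6 and 0.514.

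Among libraries of the same operation, C3 and Spp1 went together in sham and in opposite directions after SNI. Over the 8 sham libraries Pearson's r was 0.741 (exact permutation p = 0.0273) and Spearman's rho 0.738 (exact permutation p = 0.0458). Without WT sham replicate 2 and KO sham replicate 4, the libraries farthest from the median of C3, r in sham was 0.341. Leaving out the extremes of C3 narrows its range, which can lower r by itself, so this does not show that the relation rested on them. With single sham libraries left out, r ran from 0.538, without WT sham replicate 2, to 0.832. Over the 8 SNI libraries r was -0.768 (exact permutation p = 0.0215) and rho -0.857 (exact permutation p = 0.0107). Without KO SNI replicates 1 and 4, the farthest 2, r was -0.726. Adjusted over the 7 relations computed, the exact permutation p values were 0.0955 for r in each operation, and 0.16 in sham and 0.075 in SNI for rho, so neither relation passed 0.05. In each genotype, SNI replicates 1 and 2 held more C3 and less Spp1 than SNI replicates 3 and 4. The permutations treat the 8 SNI libraries as exchangeable, so a relation that runs along the replicate number was not tested. Whether the relation differed between operations was not tested. No r over all 16 libraries is given between C3 and either of the other genes, since its sham and SNI values form separate clusters.

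C3 and Apoe had r = 0.155 in sham and 0.62 in SNI (exact permutation p = 0.728 and 0.11, adjusted 0.728 and 0.256), with rho = -0.0476 and 0.405 (exact permutation p = 0.935 and 0.327, adjusted 0.935 and 0.452). Leaving out the 2 farthest libraries gave r = 0.645 in sham and 0.658 in SNI. Apoe and Spp1 had r = -0.237 and rho = -0.232 over 16 libraries (permutation p = 0.361 and 0.387, adjusted 0.505 and 0.452), and r = -0.43 without the farthest 2. Within operations their r was -0.217 in sham and -0.395 in SNI (exact permutation p = 0.487 and 0.327, adjusted 0.569 and 0.505). Their rho was -0.5 in sham and -0.381 in SNI (exact permutation p = 0.216 and 0.36, adjusted 0.452 in each). Without the 2 libraries farthest from the median of Apoe, r was -0.862 in sham and 0.00226 in SNI. No p was computed for these last 2 values. None of these relations passed a threshold of 0.05.

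**Figure D4:**
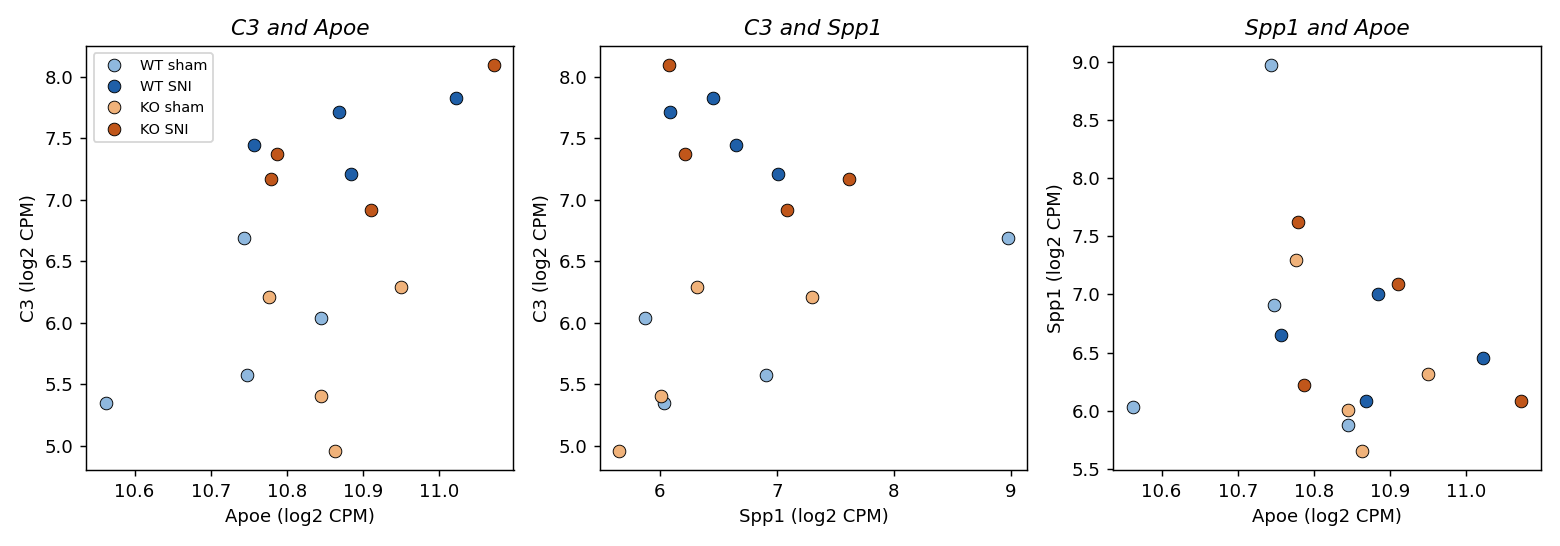
Levels of the genes against each other (both axes log2 CPM), 1 point per library, coloured by group. C3 separates sham from SNI libraries without a matching shift in Apoe or Spp1. In the middle panel C3 falls with rising Spp1 among SNI libraries (r = -0.768) and rises with it among sham libraries (r = 0.741). Neither r passed 0.05 after adjustment (exact permutation, adjusted p = 0.0955 each). Without WT sham replicate 2 and KO sham replicate 4, r in sham was 0.341.

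The genes whose pattern was most like C3 and Spp1 were sought among 10423 others with a mean log2 CPM of at least 3, by Pearson's r of log2 CPM over all 16 libraries. For C3 it was ENSRNOG00000001480, with r = 0.969 and a rank correlation of 0.991. It went from 12.3 ± 2.38 to 17.9 ± 1.98 CPM with SNI in WT and from 11.0 ± 3.17 to 17.4 ± 2.10 CPM in KO (SD, n = 4 each). Its averaged log2 fold change was 0.60 (SE 0.13, edgeR adjusted p = 0.0326). In all, 37 genes had an r above 0.9 with C3. Without WT sham replicate 2 another ID was most like C3, with r = 0.973, and 44 genes had an r above 0.9. For Spp1 it was ENSRNOG00000007552, with r = 0.962, at 76.3 CPM in WT sham replicate 2 and at most 25.5 CPM in KO SNI. Without WT sham replicate 2 another ID was most like Spp1 too, with r = 0.913, and the number of genes with an r above 0.9 went from 36 to 3. For Apoe 1 gene had an r above 0.9, at 0.902. These values describe likeness over libraries that share group effects, and for C3 the separation of sham from SNI libraries is part of each r over all libraries. The named IDs thus hold for the 16 libraries only, and the files pair no name with the IDs.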

How the data were processed

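RNA was purified with a column kit and made into stranded poly(A) libraries, per the labels' protocols. Tools named in the submitters' processing notes are fastp (0.22.0), STAR (2.7.9a) and RSEM (1.3.1), with the build mRatBN7.2 and no stated role. Annotation release and strand setting: not given in the sources used here. As deposited by the authors, the values are expected counts, read numbers estimated per gene, and all 48 values of the 3 genes were whole (tolerance 1e-09). They were rounded, filtered with filterByExpr (minimum count 10, 15237 genes left) and scaled by TMM. A robust edgeR 4.0.16 quasi-likelihood model (R 4.3.3) with 4 group means covered the 16 libraries, and Benjamini-Hochberg adjustment ran over every gene tested. Log2 CPM used a prior count of 2. Correlations over 16 libraries used 100000 permutations (scipy 1.17.1), and exact tests all arrangements. Alternatives were DESeq2 1.42.0, limma 3.58.1, other scaling, no filter, fewer libraries, a replicate block and, added after the data were seen, a fit without the robust spread. The script was tested on simulated data. The genes, comparisons and lists were chosen with earlier results of these data known. Gene and marker lists were not run, since no table used here pairs Ensembl IDs with symbols. The IDs most like a gene were taken by the highest Pearson's r, with at most 2 printed. RefSeq promoters (GRCr8) matched 3 of 3 genes by symbol. Spread between libraries limits precision more than depth does, as each gene had at least 618 counts per library.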

Additional observations from a re-analysis of the deposited data

Results flagged for a closer look

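The Spp1 level of 502 CPM in WT sham replicate 2 stood far from its group, whose remaining 3 libraries lay between 58.7 and 120 CPM. The gap to the next library made up 0.862 of the group's whole range. Among the 12 sets of 4 libraries looked at in this way (3 genes in 4 groups), it was 1 such set. For normally distributed values chance alone marks about 1 in 20. The gap was measured on CPM and not on log2 CPM, where replicates 1 to 4 stood at 5.88, 8.97, 6.91 and 6.03. The flag thus holds for the CPM scale only.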

How the results depend on the processing

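The averaged rise of C3 was called in all 24 alternatives, and its rise within each genotype was positive in all 25. Within genotypes C3 became called with DESeq2 (1.57 in WT, 1.64 in KO), with the replicate number as a block (1.63, adjusted p = 0.00452, and 1.69, adjusted p = 0.00336) and, in WT, with WT sham replicate 2 and KO SNI replicate 1 left out together (1.89). These settings called more genes in all than the main fit, which called 13 in WT and 16 in KO. DESeq2 called 65 in WT and 98 in KO, the block 45 and 70, and the fit without that pair 33 in WT. The adjusted p of C3 over all alternatives ran from 0.00452 to 0.611 in WT and from 0.00336 to 0.38 in KO. Across genes, same-numbered libraries did not deviate together throughout: the correlation of their deviations ran from -0.404 to 0.516 over 16 pairs. For C3 itself, replicate 4 was lowest in all 4 groups. The block lowered the SE of the C3 effect from 0.35 to 0.18 in WT and in KO. Whether the numbers mark a pairing of the libraries was not tested. With the replicate block the averaged Spp1 effect was 0.0164, and no other call of the 3 genes changed. Apoe and Spp1 were called in none of the comparisons under any alternative run. Some signs turned, and not only near 0: over all libraries Spp1 was -0.95 for SNI in WT and -1.08 for KO against WT after sham. The averaged Spp1 effect was 0.0252 with limma voom. The Apoe difference of KO from WT after SNI was -0.00044 with DESeq2, -0.00046 with RLE size factors and -0.0042 with library totals. Without the same pair of libraries, Spp1 was 0.24 for SNI in WT, 0.43 for the averaged effect and 0.11 for KO against WT after sham, Apoe was -0.03 for SNI in KO and -0.06 for KO against WT after SNI, and C3 was 0.13 for KO against WT after sham and -0.54 for the interaction. There, C3 with Spp1 had r = 0.538 in sham and -0.72 in SNI. With WT sham replicate 2 alone left out, Spp1 turned as well. It was then 0.24 for SNI in WT, 0.34 for the averaged effect and 0.10 for KO against WT after sham. Why that library differs, and the cause of the other turns, was not tested.

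Leaving out each library in turn gave ranges. For SNI, C3 ran from 1.40 to 1.89 in WT and from 1.35 to 1.85 in KO. For SNI in WT, Spp1 ran from -1.25 to 0.24. For SNI in KO, Apoe ran from -0.0336 to 0.0676 and Spp1 from 0.08 to 0.87. The averaged Spp1 effect ran from -0.44 to 0.34. KO against WT after sham ran from -0.39 to 0.13 for C3 and from -1.52 to 0.10 for Spp1. After SNI it ran from -0.40 to 0.0329 for C3, from -0.0599 to 0.0539 for Apoe and from -0.0522 to 0.50 for Spp1. The C3 interaction ran from -0.24 to 0.28. In the exact permutation tests a group of 3 cannot reach 0.05, so no call could pass there by construction. The differences were 1.45 to 1.90 for C3 in WT, 1.42 to 1.87 for C3 in KO, -0.0335 to 0.0642 for Apoe in KO and -0.76 to 0.28 for Spp1 in WT. The change in ratio was 1.35 to 1.73 in WT and 1.39 to 1.84 in KO for C3 to Apoe, 1.62 to 2.43 in WT and 0.78 to 1.60 in KO for C3 to Spp1, and -0.11 to 0.95 in WT for Apoe to Spp1. The r of C3 with Apoe ran from -0.183 to 0.391 in sham and from 0.333 to 0.821 in SNI, and that of C3 with Spp1 from 0.538 to 0.832 in sham and from -0.848 to -0.72 in SNI.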
